A study of Mus musculus with 4 samples.

Results

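The BCL2 family of survival and death genes was examined on all probe sets that name 1 of 10 genes and no other gene. These genes are Bcl2, Bcl2l1, Mcl1, Bcl2l11, Bbc3, Pmaip1, Bid, Bak1, Bad and Bmf, out of 18193 genes named on the array. They are read by 32 of its 45101 probe sets, and 25 of the 32 reached the level filter, an intensity of 157 on at least 1 of the 4 arrays (the median of all values). Each of the 10 genes has at least 1 probe set past the filter. The members were taken by gene name, with earlier results of these data known.

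Proteins of this family decide whether the mitochondrial outer membrane is breached, the committing step of intrinsic apoptosis. BCL2, BCL-XL (from Bcl2l1) and MCL1 are survival proteins that hold back pore-forming proteins. The BH3-only proteins BIM (Bcl2l11), PUMA (Bbc3), NOXA (Pmaip1), BID, BAD and BMF bind the survival proteins or activate the pore formers. In mice, hematopoietic stem and progenitor cells depend on MCL1, and BCL2 overexpression enlarges the stem cell pool. MCL1 protein is also a reported substrate of the ubiquitin ligase that contains Fbw7. These arrays measure RNA and show no protein.

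The 4 groups were measured with 1 Affymetrix array each, so no group has a replicate. They are Fbw7-deficient LSK, wild-type (WT) LSK, Fbw7-deficient myeloid progenitor (MP) and WT MP cells. LSK cells are lineage-negative, Kit-positive and Sca1-positive and hold the stem cells and multipotent progenitors, and MP cells are their Sca1-negative counterparts. Mice of both genotypes had been given 3 injections of polyI:C, a double-stranded RNA that induces interferon, at 20 ug per g, and their bone marrow was collected 2 weeks afterwards. Cells of 3 mice per genotype were combined and then sorted, so both populations of a genotype come from the same animals, and 20 ng of RNA was amplified in 2 cycles. The labels give neither strain nor age, and name neither the deleted part of Fbxw7 nor the means of its deletion. With 1 array per group no test was possible and no error is given. A difference below is one of log2 intensities between single arrays, "called" means at least 2-fold, and the number of arrays limits the precision.

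On its brighter probe set Fbxw7 read 1103 in Fbw7-deficient and 1355 in WT LSK cells, and 958 in Fbw7-deficient and 691 in WT MP cells, so these values do not check the genotype labels. Of 8 stem cell markers past the filter, 7 were at least 2-fold higher in LSK than in MP cells of WT mice. The WT LSK array stood apart in the Gapdh control ratio, 3' end over 5' end, with 4.30 where the other arrays had 2.60 to 2.95. For the 27 probe sets of poly-A RNA controls, Fbw7-deficient minus WT had a median of log2 -0.66 in MP and -0.02 in LSK.

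The promoters of Bcl2, Mcl1 and Bid are shown because the probe sets of each shared a sign within a population, and much of what follows turns on these genes. They are the RefSeq windows (GRCm38.p6) from 250 bases before to 50 after the annotated start. Bcl2 lies at chr1:106714241-106714540 on the minus strand, Mcl1 at chr3:95658471-95658770 on the plus strand and Bid at chr6:120916775-120917074 on the minus strand. Capitals mark matches to 8 short motifs searched on both strands.
Bcl2: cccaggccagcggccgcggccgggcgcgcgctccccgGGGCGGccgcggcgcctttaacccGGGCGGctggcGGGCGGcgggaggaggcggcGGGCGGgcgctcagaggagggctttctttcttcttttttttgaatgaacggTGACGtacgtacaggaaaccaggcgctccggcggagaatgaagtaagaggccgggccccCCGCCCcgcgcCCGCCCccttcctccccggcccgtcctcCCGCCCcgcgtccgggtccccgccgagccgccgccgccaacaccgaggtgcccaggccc
Mcl1: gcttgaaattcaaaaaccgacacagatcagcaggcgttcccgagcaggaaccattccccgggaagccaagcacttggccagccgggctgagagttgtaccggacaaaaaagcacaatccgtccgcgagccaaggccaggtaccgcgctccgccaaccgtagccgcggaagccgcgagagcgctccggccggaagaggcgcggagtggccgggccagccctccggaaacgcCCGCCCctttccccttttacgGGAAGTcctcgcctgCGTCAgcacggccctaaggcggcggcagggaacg
Bid: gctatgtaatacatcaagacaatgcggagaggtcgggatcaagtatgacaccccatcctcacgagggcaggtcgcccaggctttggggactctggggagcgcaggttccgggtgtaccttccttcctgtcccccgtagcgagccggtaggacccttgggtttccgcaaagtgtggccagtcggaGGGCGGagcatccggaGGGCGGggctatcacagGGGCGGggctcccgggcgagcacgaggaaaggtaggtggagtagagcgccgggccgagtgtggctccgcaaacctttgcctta

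The Bcl2 window was 76% G or C, that of Mcl1 65.7% and that of Bid 63.3%, against a median of 52.7% over 32851 promoter windows of the same length. The GC box GGGCGG, bound by SP1-type factors, matched 7 times in Bcl2, once in Mcl1 and 3 times in Bid, and 35.7% of all windows hold it. The half-site TGACG of cyclic AMP response elements matched once in Bcl2 and once in Mcl1 (20.8% of all windows). The ETS motif GGAAGT matched once in Mcl1 (23.8%). No match was found in these 3 windows for the E-box CACGTG (7.15% of all windows), the GATA motif as AGATAA or TGATAA (18.6%), the FOXO motif TAAACA (13.4%), the STAT motif TTCNNNGAA (8.30%) or the AP-1 motif TGANTCA (7.81%). No matches overlapped. Promoter windows were found for 9 members. Outside these 3, the GC box matched 5, 4 and 7 times in the windows of Bbc3 and 3 times in each of Bcl2l11. It also lay in 1 window each of Bad and Bmf, and in none of Bcl2l1 or Bak1. The half-site TGACG lay in windows of Bbc3 and Bmf, and the ETS motif in windows of Bcl2l1, Bak1, Bad and Bmf. The FOXO motif lay in 1 window each of Bcl2l11 and Bbc3. The E-box lay in 1 window of Bbc3 and the GATA motif in 1 window of Bcl2l1.

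The comparison of Fbw7-deficient with WT cells bears on how loss of Fbw7 alters stem and progenitor cells. Bcl2 was 3.22-fold lower on its brightest probe set in Fbw7-deficient than in WT MP cells. Of its 5 probe sets 4 were called lower in MP, and the other was 1.29-fold lower. Pmaip1 was called lower there too, on a single probe set whose Fbw7-deficient MP value lay under the level filter, so the size of its difference is not established. No member was called in LSK cells, where 1.51% of all probe sets past the filter were called higher and 1.87% lower. In LSK cells the larger values were those of Bid and Bak1, both about 1.5-fold higher in Fbw7-deficient cells, with Mcl1 lower on all 6 of its probe sets.

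Bcl2, the founding survival gene of the family, had 5 probe sets, all past the filter. The brightest read 3448 in Fbw7-deficient LSK and 4032 in WT LSK cells, and 864 in Fbw7-deficient MP and 2782 in WT MP cells. The Fbw7-deficient MP array was thus far below the other arrays, which lay within a narrower range. The log2 difference between genotypes was -1.69 in MP and -0.23 in LSK. Of 12239 genes past the filter, each read by its brightest probe set, 29 (0.237%) had a difference as low as that of Bcl2 in MP, Bcl2 included.

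The other Bcl2 probe sets pointed the same way in MP, and 4 of the 5 were called. The second by mean level read 695 in Fbw7-deficient and 699 in WT LSK cells, and 490 in Fbw7-deficient and 634 in WT MP cells, and was the one not called (log2 -0.37 in MP). The third read 735 and 932 in Fbw7-deficient and WT LSK, and 216 and 630 in Fbw7-deficient and WT MP cells (log2 -1.54 in MP). In MP the fourth had a log2 difference of -1.32 (184 in Fbw7-deficient, 460 in WT). The dimmest, of a kind marked as cross-reacting, had one of -1.13 (122 in Fbw7-deficient, under the filter, and 266 in WT). On every probe set, then, the Fbw7-deficient MP value was the lowest of the 4 arrays. In LSK all 5 differences lay below 0, from -0.43 to -0.01. These are bulk samples, so fewer cells that express Bcl2 and less Bcl2 RNA per cell cannot be told apart.

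**Figure D1:**
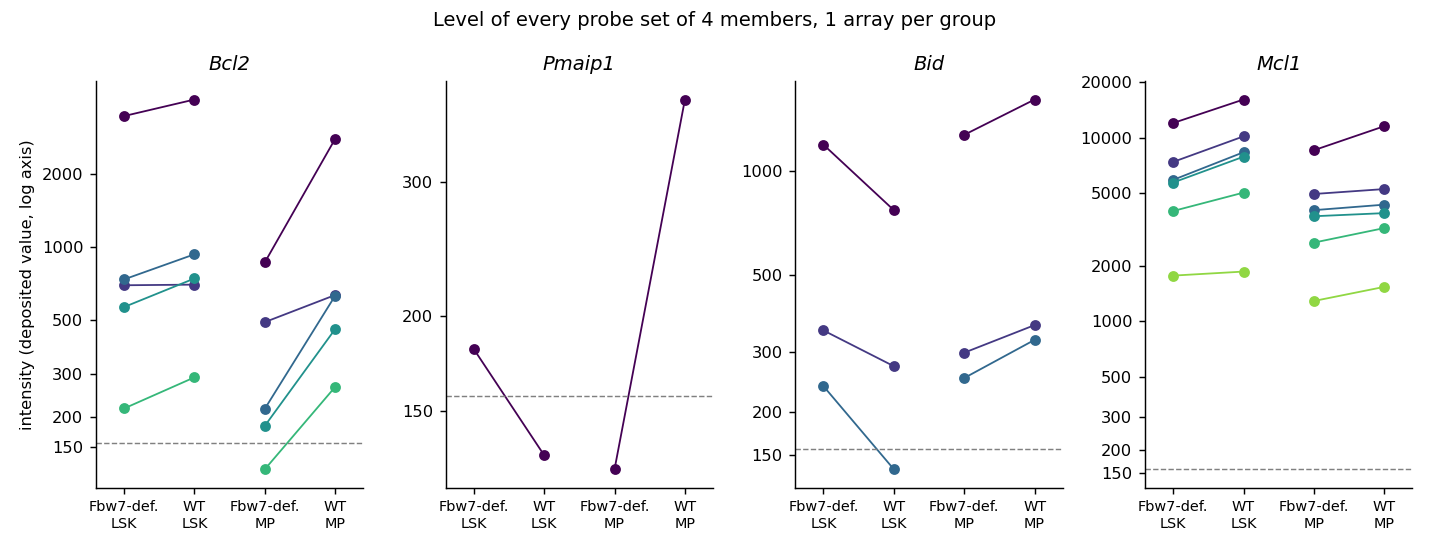
Intensity (log axis) of every probe set of Bcl2, Pmaip1, Bid and Mcl1 on the 4 arrays. Each line joins the Fbw7-deficient to the WT array of 1 population for 1 probe set, and the dashed line is the level filter of 157. All 5 lines of Bcl2 lie lowest on the Fbw7-deficient MP array, and the lines of Bid run in opposite directions in LSK and MP.

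Mcl1, a short-lived survival protein, had 6 probe sets and all were lower in Fbw7-deficient cells in both populations, none by 2-fold. The brightest read 12024 in Fbw7-deficient and 16147 in WT LSK cells, and 8549 in Fbw7-deficient and 11558 in WT MP cells. It gave nearly the same log2 difference in LSK (-0.43) and MP (-0.43). The other probe sets did not repeat that equality. In LSK their log2 differences ran from -0.50 to -0.07 and in MP from -0.26 to -0.06. The 3 Mcl1 probe sets of the cross-reacting kind were at -0.46, -0.50 and -0.47 in LSK, against -0.09, -0.10 and -0.06 in MP.

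Bcl2l1, which encodes BCL-XL, a survival factor of erythroid and megakaryocytic cells, was read above the filter by 1 of 4 probe sets. It showed 2056 in Fbw7-deficient and 1780 in WT LSK cells, and 1304 in Fbw7-deficient and 1158 in WT MP cells. Both genotype differences were small and positive (log2 0.21 in LSK and 0.17 in MP). The 3 dim probe sets stayed between 49.4 and 81.3 on every array. Among the 3 survival genes, Bcl2l1 alone was not lower in Fbw7-deficient cells on its brightest probe set.

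Bak1 encodes BAK, a pore former of the outer membrane. Its probe set past the filter read 610 in Fbw7-deficient and 397 in WT LSK cells, and 702 in Fbw7-deficient and 534 in WT MP cells. It was higher in Fbw7-deficient cells in both populations, by log2 0.62 (1.54-fold) in LSK and 0.39 in MP. A dim probe set of Bak1 read 33.3 to 38.6 on all arrays, under the filter, with differences of -0.05 in LSK and 0.00 in MP.

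Bid, whose product is cut by caspase 8 and links death receptors to mitochondria, had 3 probe sets past the filter. The brightest read 1194 in Fbw7-deficient and 771 in WT LSK cells, and 1275 in Fbw7-deficient and 1615 in WT MP cells. It was higher in Fbw7-deficient LSK (log2 0.63) and lower in Fbw7-deficient MP cells (log2 -0.34). The other probe sets had the same signs, with 0.34 and 0.80 in LSK and -0.27 and -0.37 in MP. The 0.80 belongs to the dimmest probe set, whose WT LSK value of 137 lay under the level filter. WT LSK was the lowest array and WT MP the highest on all 3 probe sets.

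Pmaip1 encodes NOXA, which binds MCL1, and was read by a single probe set near the filter. It showed 181 in Fbw7-deficient and 131 in WT LSK cells, and 126 in Fbw7-deficient and 384 in WT MP cells. WT MP was the high array and the other 3 were dim. The log2 difference was -1.61 in MP and 0.46 in LSK. The gene reached the filter on the Fbw7-deficient LSK and WT MP arrays. Of the MP arrays only WT reached it, and the Fbw7-deficient value of 126 is not shown to be above background. There is no further probe set to set beside it.

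Bcl2l11 encodes BIM, a BH3-only protein that binds all the survival proteins. Its brightest probe set read 999 in Fbw7-deficient and 1272 in WT LSK cells, and 1000 in Fbw7-deficient and 1020 in WT MP cells. WT LSK was the high array and the other 3 were alike. All 4 probe sets past the filter were lower in Fbw7-deficient LSK cells, by log2 values from -0.35 to -0.08, and in MP they spread from -0.03 to 0.15. A further, dim probe set had differences of 0.32 in LSK and 0.36 in MP at levels of 54.8 to 84.8.

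The remaining BH3-only genes were not called in either population. Bbc3, which encodes PUMA, a mediator of p53-driven death, read 303 in Fbw7-deficient and 327 in WT LSK cells, and 308 on both MP arrays. Bad, whose product is held inactive by growth factor signalling, read 1036 in Fbw7-deficient and 920 in WT LSK cells, and 1145 in Fbw7-deficient and 1107 in WT MP cells. The dimmer probe set of Bad was at log2 0.31 in LSK and -0.13 in MP, so the sign in MP differs between its probe sets. Bmf, whose product is linked to the cytoskeleton, read 223 in Fbw7-deficient and 255 in WT LSK cells, and 165 in Fbw7-deficient and 211 in WT MP cells. That probe set gave log2 -0.20 in LSK and -0.35 in MP, while its 2 dim probe sets were above 0 in both populations (0.06 to 0.26).

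**Figure D2:**
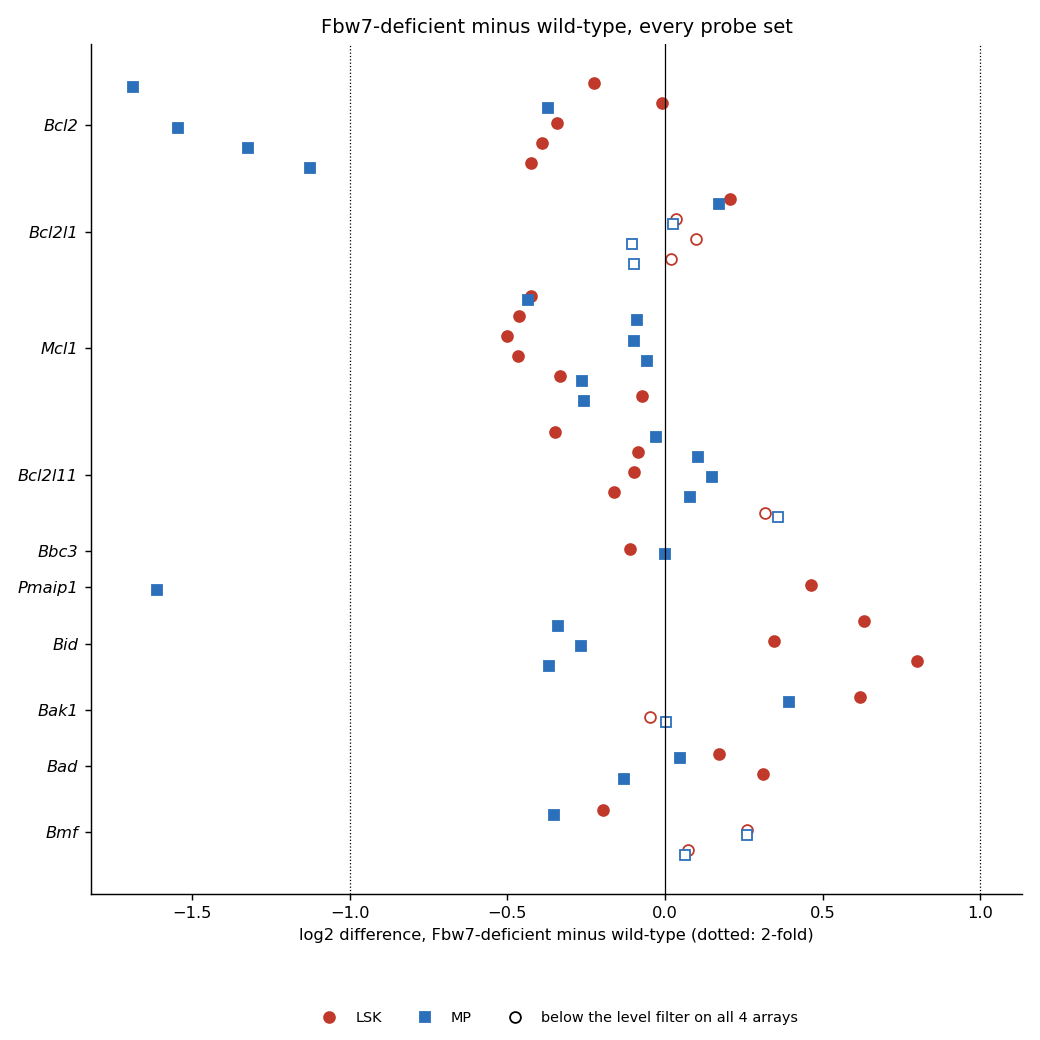
Log2 difference of Fbw7-deficient minus WT for each of the 32 member probe sets, in LSK (circles) and MP (squares), with open symbols for probe sets under the level filter on all arrays. Dotted lines mark 2-fold, and only 4 squares of Bcl2 and the square of Pmaip1 lie outside them.

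In counts, 5 of the 25 member probe sets past the filter were called lower in Fbw7-deficient MP cells and none higher. Among all 20887 probe sets past the filter, 1.35% were called lower and 0.723% higher. The 5 come from 2 genes, and probe sets of a gene share its RNA and are not independent. At 1.5-fold the member counts in MP were still 5 lower and 0 higher, beside 5.2% and 2.94% of all probe sets. In LSK none of the 25 was called in either direction, where 1.51% of all probe sets were called higher and 1.87% lower. At 1.5-fold 3 were higher in Fbw7-deficient LSK cells (2 of Bid and 1 of Bak1) and none lower. Of all probe sets 4.56% were higher and 6.97% lower. The dimmest Bid probe set, 1 of the 3, had a WT LSK value (137) under the level filter, so the size of its difference is not established. For Bid, 3.86% of the 12239 genes had a difference at least as high in LSK, for Bak1 4.02% and for Pmaip1 6.91%. The WT LSK value of Pmaip1 (131) lay under the level filter, so its place is uncertain. In MP 9.04% of genes were as low as Mcl1, 12.2% as low as Bmf and 12.8% as low as Bid, while 7.50% were as high as Bak1.

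**Figure D3:**
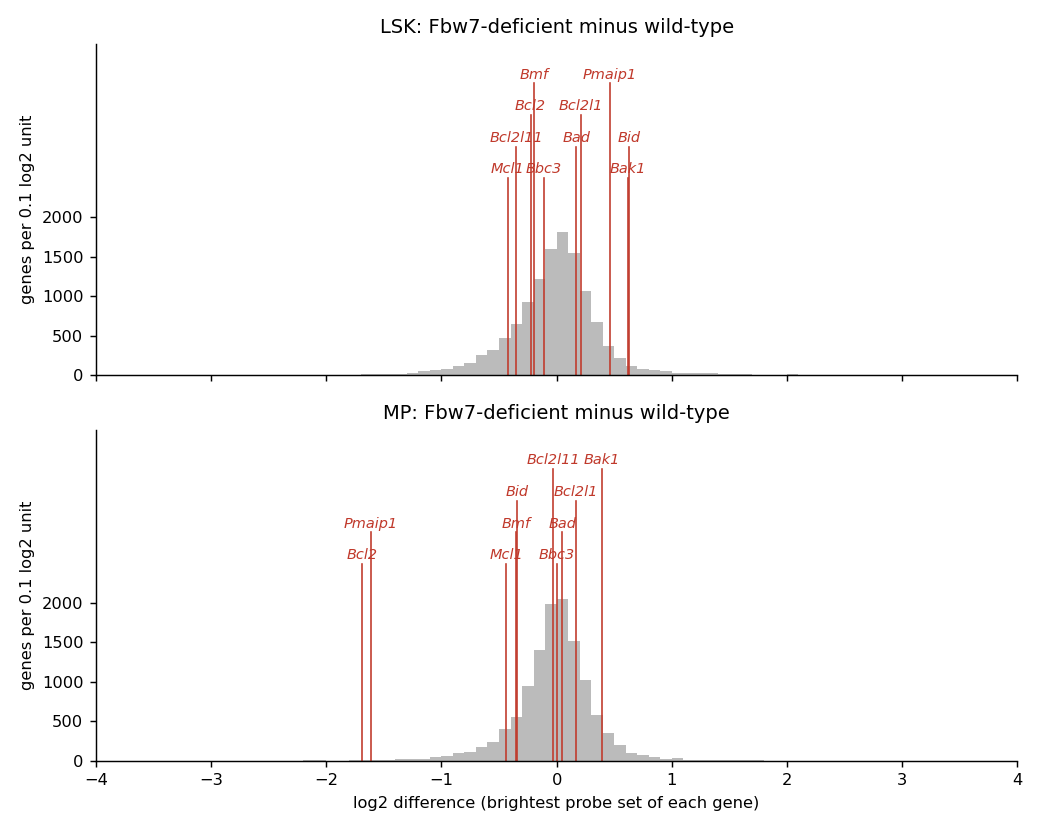
Number of genes (of 12239, by brightest probe set) per 0.1 log2 unit of the genotype difference, in LSK above and MP below, with the 10 members as red lines whose height has no meaning. Bcl2 at -1.69 stands in the lower tail in MP, as does Pmaip1, whose Fbw7-deficient MP value is under the level filter, and all members lie between -0.43 and 0.63 in LSK.

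Lists of marker genes of cell types in or near the gates also differed between the genotypes. In MP cells the 8 early lymphoid markers were all lower in Fbw7-deficient cells, 4 of them by 2-fold, with a summed intensity of 2881 in Fbw7-deficient and 5883 in WT MP cells. Of all genes past the filter 1.49% were called lower and 0.825% higher in MP. Of 9 B and plasma cell markers 4 were called lower and none higher (summed 5017 in Fbw7-deficient and 13033 in WT). Much of that summed difference came from Igha (523 in Fbw7-deficient, 4238 in WT) and Ighm (2718 and 5850). The called Jchain read 126 in Fbw7-deficient MP cells, under the level filter. Of the megakaryocyte markers 2 of 7 were called lower (6042 in Fbw7-deficient, 10896 in WT). The neutrophil and monocyte progenitor list had 3 of 9 called lower and a median of 0.01 (summed 149505 in Fbw7-deficient and 156852 in WT). Erythroid markers were higher in Fbw7-deficient MP cells, 3 of 11 by 2-fold (91508 in Fbw7-deficient, 62177 in WT). These lists move on the same arrays as Bcl2 and Pmaip1, as do the poly-A controls (median -0.66), and their part in those differences was not tested. Of the mature neutrophil and macrophage list 0 of 11 were called in MP, and of the T and NK cell list 0 of 6. Of the stem cell list 1 of 8 was lower (summed 2331 in Fbw7-deficient, 3065 in WT), and of the mast cell and basophil list 1 of 6 was higher and 1 lower (12119 in Fbw7-deficient, 16073 in WT).

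In LSK cells 5 of 8 stem cell markers were lower by 2-fold in Fbw7-deficient cells (summed 7817 in Fbw7-deficient and 20212 in WT), as were 4 of 7 megakaryocyte markers (5883 and 15767). Higher by 2-fold were 7 of 11 erythroid markers (47530 in Fbw7-deficient, 22992 in WT), 4 of 9 neutrophil and monocyte progenitor markers (117092 and 63052) and 8 of 11 mature neutrophil and macrophage markers (142818 and 69640). Of the B and plasma cell list 3 of 9 were called higher, of the early lymphoid list 1 of 8, of the T and NK cell list 0 of 6, and of the mast cell and basophil list 1 of 6 higher and 1 lower. Of all genes past the filter 1.79% were called higher and 1.95% lower in LSK. No marker value was at 0 on any array. The higher values of Bid and Bak1 and the lower ones of Mcl1 and Bcl2l11 in LSK were measured against the WT LSK array, with its Gapdh ratio of 4.30. The part of that ratio and of the marker lists in them was not tested.

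Which members differ between the stem cell compartment and the myeloid progenitors was read from LSK against MP of the same genotype. In WT mice Bid and Pmaip1 were lower in LSK than in MP, and Mcl1 was higher on all 6 probe sets. Bid read 771 in LSK and 1615 in MP (log2 -1.07), and Pmaip1 131 in LSK and 384 in MP (log2 -1.55). The WT LSK value of Pmaip1 lay under the level filter, as did that of the dimmest Bid probe set. For both, only the MP array of this pair reached the filter, so the size of the difference is not established. The log2 differences of Mcl1 ran from 0.28 to 1.02, with 1 probe set called. Bcl2 was higher in WT LSK than in WT MP cells on all 5 probe sets but by less than 2-fold (log2 0.13 to 0.69), and Bcl2l1 was at log2 0.62. In all, 1 of 25 member probe sets was called higher and 3 lower in WT LSK, beside 4.93% and 2.36% of all probe sets.

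Between the Fbw7-deficient populations the order of the family was another one. Bcl2 read 3448 in LSK and 864 in MP, 3.99-fold higher in LSK, and 3 of its 5 probe sets were called higher in LSK. No member was called lower, and background shares were 3.85% higher and 1.48% lower. Bid read 1194 in LSK and 1275 in MP (log2 -0.09), so LSK and MP were close in Fbw7-deficient mice where they were 2.09-fold apart in WT mice. Pmaip1 was at log2 0.52, the opposite sign to WT, with its Fbw7-deficient MP value under the level filter. Mcl1 stayed higher in LSK on all 6 probe sets, by log2 0.46 to 0.61, and Bcl2l1 was at 0.66. This comparison shares its arrays with the genotype comparisons above, so its values restate them from the other side.

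**Figure D4:**
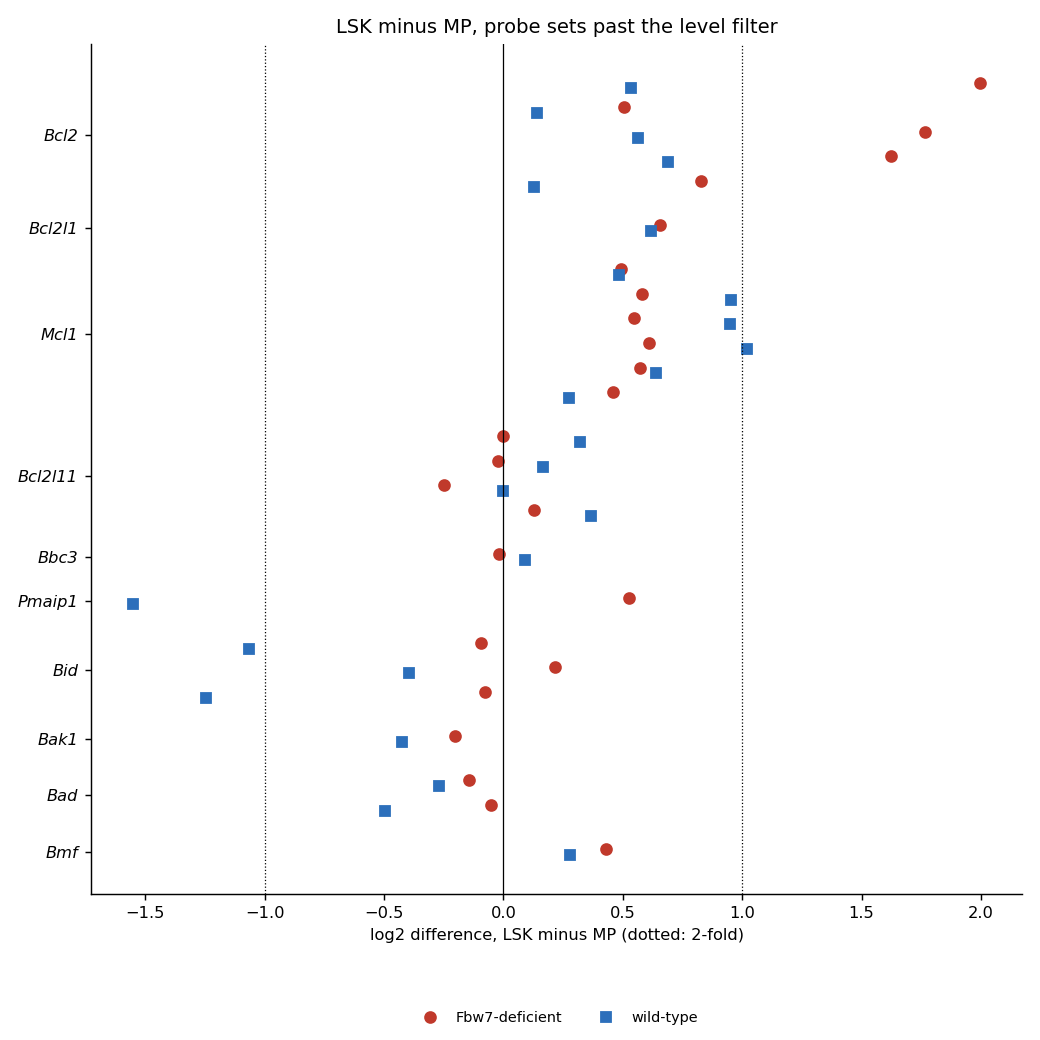
Log2 difference of LSK minus MP for the 25 member probe sets past the filter, in Fbw7-deficient (circles) and WT cells (squares), with dotted lines at 2-fold. Bcl2 lies further to the right in Fbw7-deficient cells, and Bid and Pmaip1 lie left of 0 by up to 1.55 in WT cells.

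The genotype difference in LSK minus that in MP was 1.46 for Bcl2, 2.08 for Pmaip1, 0.97 for Bid, 0.22 for Bak1 and 0.01 for Mcl1 on their brightest probe sets. At 2-fold it was called above 0 for 4 of 25 member probe sets (2 of Bcl2, 1 of Pmaip1 and 1 of Bid) and below 0 for none, beside 2.02% and 1.33% of all probe sets. All 5 probe sets of Bcl2 and all 3 of Bid had it above 0, and all 4 of Bcl2l11 past the filter had it below 0 (-0.32 to -0.19). For Mcl1 2 were above 0 and 4 below. No error can be given for this quantity, since the 4 arrays are used up by it. For Pmaip1 the WT LSK and Fbw7-deficient MP values lay under the level filter. The same held for the WT LSK value of the called Bid probe set, its dimmest.

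Members that varied by at least 1 log2 unit over the 4 arrays were Bcl2 (2.22), Pmaip1 (1.61) and Bid (1.07). The genes closest to them were found by the Euclidean distance of log2 values centred on their mean over the 4 arrays. For Bcl2 these were Ptgs2, the inducible cyclooxygenase gene (distance 0.179), Bex6 (0.279) and Armcx4 (0.297). Ptgs2 read 332 in Fbw7-deficient and 440 in WT LSK cells, and 98.0 in Fbw7-deficient and 303 in WT MP cells. For Pmaip1 they were Lpxn (0.323), the interferon-inducible Ifi209 (0.370) and the glutamate receptor gene Gria3 (0.429). Ifi209 read 1074 in Fbw7-deficient and 829 in WT LSK cells, and 566 in Fbw7-deficient and 2152 in WT MP cells. For Bid they were the macrophage receptor gene Adgre1 (0.067), Ltv1 (0.072) and Mid1ip1 (0.087). The distances are a description over 4 arrays and 12239 genes.

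Other genes of the apoptotic pathway were read from 8 lists with 107 genes past the filter. In Fbw7-deficient LSK cells 5 of the 107 were called lower and none higher, where 1.95% and 1.79% of all genes were. In Fbw7-deficient MP cells 4 were lower and none higher, beside 1.49% and 0.825%. The medians over the 107 were log2 -0.08 in both populations, and those over all genes 0.00 in both.

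None of the 10 further BCL2 family and associated genes was called in either genotype comparison (medians -0.03 in LSK and -0.10 in MP). Nor was any of the 13 genes of the apoptosome and mitochondrial death factors, such as the caspase activator Apaf1 and cytochrome c, whose medians were 0.23 in LSK and 0.17 in MP. Of 8 caspases Casp12 was called lower in LSK, at 162 in Fbw7-deficient and 430 in WT cells, and the list medians were -0.35 in LSK and -0.21 in MP. Of 9 inhibitor of apoptosis genes Naip5, a sensor of bacterial flagellin, was lower in LSK, at 840 in Fbw7-deficient and 2130 in WT cells. In MP it read 551 in Fbw7-deficient and 1086 in WT cells, just under 2-fold. The list medians were -0.11 in LSK and -0.23 in MP. Of 8 death receptor pathway genes Tnfsf10, which encodes the ligand TRAIL, was called lower in LSK, at 500 in Fbw7-deficient and 1010 in WT cells. Its 2 other probe sets past the filter had log2 differences of -0.36 and -0.05. The list medians were -0.11 in LSK and -0.23 in MP.

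Of 16 transcription factors known to act on these genes, Hlf was called lower in LSK (1677 in Fbw7-deficient, 5515 in WT) and Jun lower in MP (3955 in Fbw7-deficient, 7989 in WT). In LSK this probe set of Jun was at log2 -0.97. The other probe set of Jun was past 2-fold in both populations, at -1.49 in LSK and -1.40 in MP. Foxo3, an activator of BH3-only genes in several cell types, read 1597 in Fbw7-deficient and 2739 in WT LSK cells (log2 -0.78), and 1142 in Fbw7-deficient and 922 in WT MP cells (log2 0.31). Its second probe set gave -0.52 and -0.05. The list medians were -0.29 in LSK and -0.11 in MP. None of 27 protein regulators of the family, Fbxw7 included, was called in either genotype comparison (medians -0.04 in LSK and 0.06 in MP).

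Of 18 survival cytokine receptor and signalling genes 3 were called lower in Fbw7-deficient MP cells. The shared IL-6 receptor chain gene Il6st read 314 in Fbw7-deficient and 782 in WT cells, Flt3 521 and 1229, and the M-CSF receptor gene Csf1r 2410 and 5624. A dimmer probe set of Il6st was not called in MP (log2 -0.57), nor was 1 of the other Csf1r probe sets (log2 -0.75). In LSK the angiopoietin receptor gene Tek was the 1 called lower, at 169 in Fbw7-deficient and 450 in WT cells. The list medians were -0.07 in LSK and -0.23 in MP. Csf1r and Flt3, like Hlf, also stand in the marker lists above.

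In WT LSK against WT MP cells 11 of the 107 genes were called higher and 3 lower, beside 5.05% and 2.4% of all genes. By brightest probe set, those higher in LSK included Hlf (log2 3.53), the signalling inhibitor genes Socs3 (3.01) and Socs2 (2.24), Flt3 (2.44), Tnfsf10 (1.82), Casp12 (1.73), Foxo3 (1.57), Tek (1.39), the survival kinase gene Pim1 (1.28) and Foxo1 (1.01). Other probe sets past the filter were not called for several of these genes, with 0.39 and 0.23 for Foxo1, -0.01 for Pim1, 0.54 and 0.47 for Tnfsf10, 0.82 for Socs3 and -0.16 for Socs2. Among those lower in LSK were Trib2 (-3.26), at 254 in LSK and 2428 in MP, and Csf1r (-1.13). The WT MP values of Socs2 (124) and Casp12 (130) lay under the level filter, so the size of their differences is not established.

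**Figure D5:**
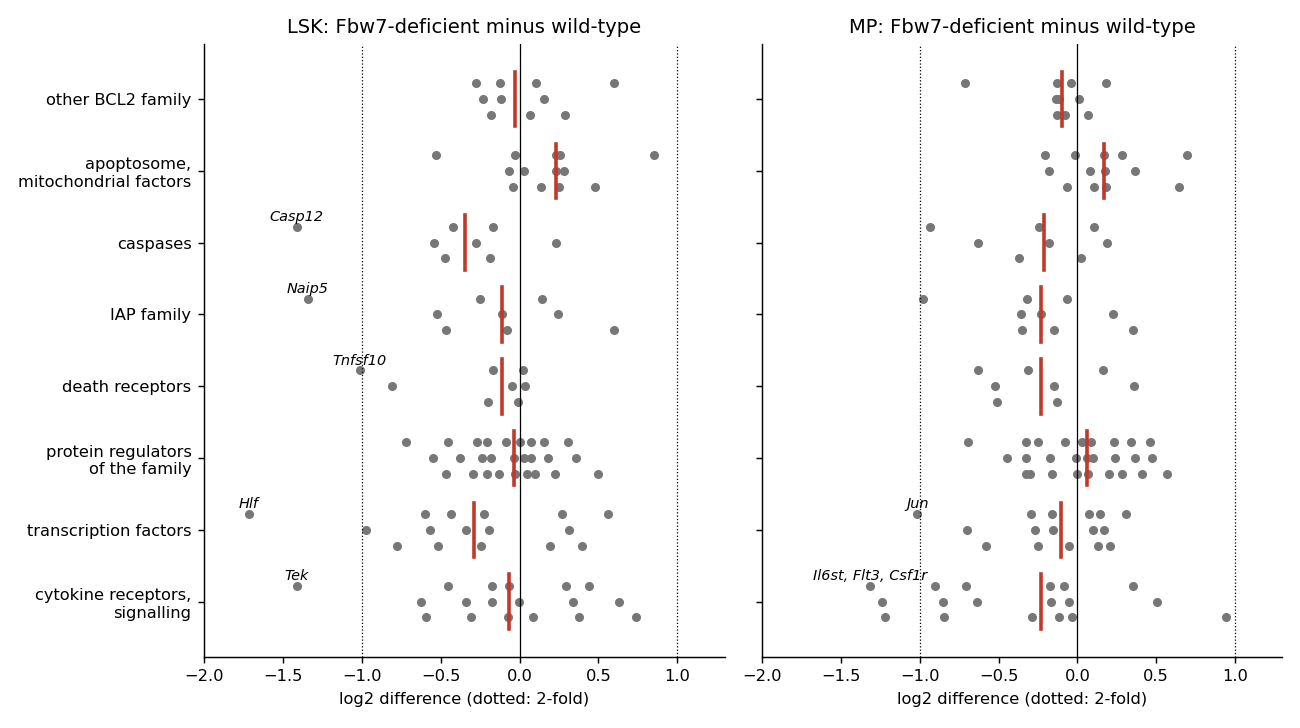
Log2 difference of Fbw7-deficient minus WT for the genes of 8 pathway lists in LSK (left) and MP (right), 1 point per gene at its brightest probe set, spread vertically for sight only. Red bars are list medians, dotted lines mark 2-fold, and the genes named are those outside them.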

How the data were processed

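The values the authors deposited are linear intensities, 1 per probe set and array. The submitters' processing notes name RMA, with no version or settings. RMA usually equalises the distributions of arrays, which hides a shift common to most genes and shrinks the differences of dim ones. The column medians lay between 155 and 159. Genes were named from the platform annotation with symbols updated by gene ID through a RefSeq table (GRCm38.p6): 34945 probe sets name 1 gene, 932 several and 9224 none. A gene is represented by whichever of its probe sets was brightest on average (mean of log2 over the 4 arrays). Probe sets with no array at 157 or above were shown but not counted.

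Differences of log2 values were computed with Python 3.11.15 and pandas 2.3.3, with no test. All 32 member probe sets are reported. Named pathway genes are those past 2-fold in either genotype comparison or in WT LSK against MP, up to 4 per list and comparison; marker genes are given as lists. Some genes are in more than 1 list. The members and lists were chosen with earlier results of these data known. Alternatives were another normalization, a pseudocount of 50, other level filters, probe set choice and a call at 1.5-fold.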

Additional observations from a re-analysis of the deposited data

Results flagged for a closer look

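With 1 array per group these differences between the populations were not tested. Pmaip1 was higher in Fbw7-deficient LSK (log2 0.46) and lower in Fbw7-deficient MP cells (-1.61), a difference of 2.08 between the 2 genotype differences, with its WT LSK and Fbw7-deficient MP values under the level filter. Bid had 0.63 in LSK and -0.34 in MP, a difference of 0.97. Of the pathway genes named above, Csf1r (0.74 in LSK and -1.22 in MP, difference 1.96) and Il6st (0.29 and -1.32, difference 1.61) were higher in Fbw7-deficient LSK and lower in Fbw7-deficient MP cells. Foxo3 (-0.78 in LSK and 0.31 in MP, difference -1.09), Pim1 (-0.47 and 0.09, difference -0.56) and Socs2 (-0.18 and 0.35, difference -0.53) ran the other way. The WT MP value of Socs2 lay under the level filter.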

How the results depend on the processing

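No paired analysis was possible because each group has 1 array. The 7 member differences called at 2-fold kept their direction under every alternative that gave a value. For some alternatives that outcome was fixed or nearly so. A pseudocount cannot turn the sign of a difference between 2 arrays. Centring shifts values little where the column medians lie between 155 and 159, and the deposited values were already RMA processed before the repeated quantile normalization. For the genotype difference in MP, Bcl2 ranged from -1.69 to -1.21 and Pmaip1 from -1.64 to -1.31. With the mean of all probe sets, Bid in WT LSK against MP was -0.90 and the Bcl2 difference of genotype differences 0.93, both under 2-fold. Pmaip1 has a single probe set, so the choice of probe sets could not change it. Leaving out _x_at and _s_at probe sets could not change Bcl2 or Bid either, whose brightest probe sets are of another kind. The genotype calls of members in LSK numbered 0 probe sets and 0 genes at 2-fold, and 3 and 2 at 1.5-fold. At 4 times the level filter the calls in MP were 3 probe sets and 1 gene in place of 5 and 2, since Pmaip1 and 1 probe set of Bcl2 dropped out. LSK against MP in WT gave 4 probe sets and 2 genes, with 2 and 1 at the stricter filter, 9 probe sets at 1.5-fold and 1 gene with the mean of all probe sets. In Fbw7-deficient cells it gave 3 probe sets and 1 gene, with 6 and 2 at 1.5-fold. The difference of genotype differences gave 4 and 2, with 2 and 1 at the stricter filter, 8 probe sets at 1.5-fold and 1 gene with the mean of all probe sets. Pathway genes lower in LSK numbered 5, with 3 at the stricter filter and 12 at 1.5-fold, and higher ones 0, with 1 without the cross-reacting probe sets and 5 at 1.5-fold. In MP 4 were lower and 0 higher, with 15 and 3 at 1.5-fold. Uncalled members did change sign under some choices. With the mean of all probe sets 6 of 50 values did, among them the MP difference of Bcl2l1 (0.17 to -0.00) and Bcl2l11 (-0.03 to 0.13), and without _x_at and _s_at probe sets 4 did, all of Bmf. Centring the arrays turned 2 values and repeating the quantile normalization 1, all of them differences of genotype differences close to 0. The brightest Bmf probe set is of the _s_at kind. Without it Bmf was read by a probe set at 82.7 to 88.4, under the level filter on all arrays. The cause of the other sign changes was not tested. Dim members, Pmaip1 and Bmf first, limit what these arrays can show.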
